A study of Homo sapiens with 6 samples.

Results

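The 6 genes described here encode the proteins that attach ISG15 to other proteins and remove it again: ISG15 itself, UBA7, UBE2L6, HERC5, HERC6 and USP18. They were chosen by name, as the modifier, its activating, conjugating and ligating enzymes and its deconjugating protease, and all 6 were found among the 29845 genes of the count data. The RNA came from A549, a human cell line of lung epithelial cancer. The control cells received the empty plasmid and the other cells a plasmid for FLAG-tagged TFAM, a DNA-binding protein of mitochondria, both by lipid transfection. Polyadenylated RNA of 3 biological replicates per group was sequenced as 6 libraries, and no selection of the cells that took up plasmid is described.

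ISG15 is a small protein built of a pair of ubiquitin-like domains, and interferon raises its transcription in most cell types. UBA7 activates it, UBE2L6 takes it over as the conjugating enzyme, and HERC5, which sits on ribosomes, joins it to lysines of newly made proteins in human cells. HERC6 is the neighbouring relative of HERC5 and carries most of this ligase activity in mice. USP18 takes ISG15 off its targets, and it also binds the interferon receptor chain IFNAR2 and dampens signalling from it. In airway epithelium the system is known as part of the response to respiratory viruses, and free ISG15 is also released from cells.

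Between 26650854 and 37321956 reads were counted on genes per library. TFAM itself had 2555, 1878 and 2663 reads in the controls, against 2291, 2808 and 2492 reads in the libraries of cells given the TFAM plasmid. As FPKM, reads per length of transcript and depth, TFAM stood at 12.36, 10.99 and 11.2 in the control and at 10.64, 11.88 and 13.63 in the other group, so the groups overlapped. The fold change of TFAM was 1.06, with a 95% interval from 0.914 to 1.23 (adjusted p = 0.62, edgeR quasi-likelihood test). The RNA counted on TFAM did not separate the groups, whereas the authors showed the FLAG-tagged protein by western blot. The second group is called the libraries labelled TFAM-OE throughout.

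All 6 genes of the ISG15 machinery stood lower in the TFAM-OE group than in the control. Calls required a fold change of at least 2 in either direction together with an adjusted p under 0.05. By this rule 6 of 6 were called lower, whereas calls over all 16555 genes tested came to 342 (2.07%) lower and 74 (0.447%) higher. The 6 genes were chosen with earlier results of these data known, which limits this comparison. In all 6 genes every library labelled TFAM-OE also lay below every control library, which was the case for 15.8% of the genes tested. The median log2 fold change was -1.78 over the 6 genes and -0.01 over all genes tested. The p-values rest on the spread between 3 libraries per group. RNA was taken from whole cultures, in which fewer expressing cells and less RNA per cell cannot be told apart.

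**Figure D1:**
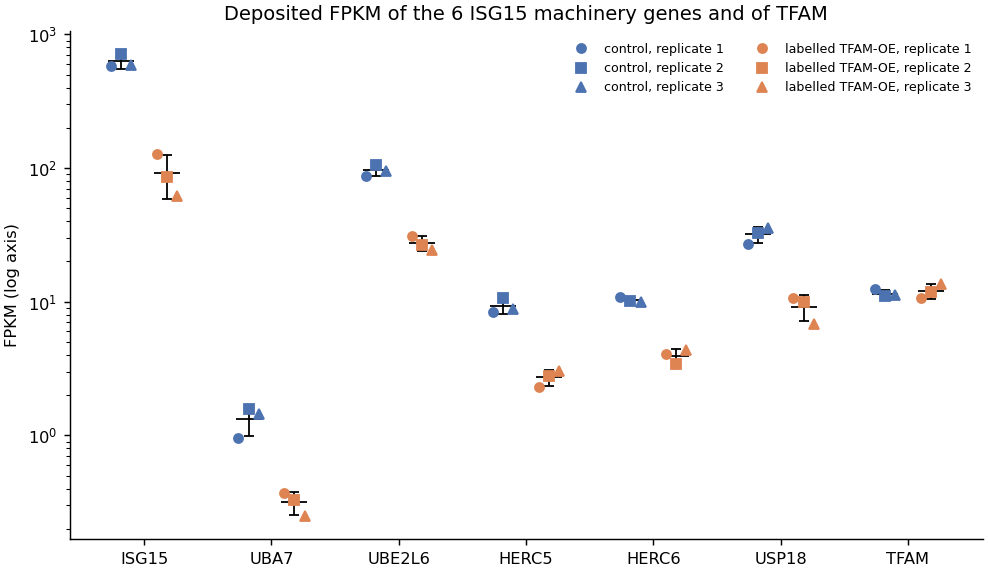
Deposited FPKM values (log axis) of the 6 genes and of TFAM in each of the 6 libraries, with the mean and SD of the 3 libraries per group in black. The groups are apart for all 6 genes of the ISG15 machinery, from ISG15 at 585.3 to 709.55 FPKM in the control down to UBA7 at 0.95 to 1.57 FPKM, and they overlap for TFAM.

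The modifier was by far the most abundant of the 6 transcripts. ISG15 (ENSG00000187608.8, chromosome 1, 1001138 to 1014540, plus strand) had 21054, 21092 and 24274 reads in the controls and, under the TFAM-OE label, 4809, 3540 and 1980 reads. Its FPKM values were 585.3, 709.55 and 586.53 in the control, against 128.33, 86.05 and 62.26 under the TFAM-OE label. The lowest control library was thus far above the highest library labelled TFAM-OE, by 4.16 times on the scaled counts. By mean FPKM, ISG15 ranked 87 among the genes of the control but 593 in the TFAM-OE group. The log2 fold change was -2.72 (SE 0.26, adjusted p = 2.7e-04, edgeR quasi-likelihood test), which left a fraction of 0.151 of the control level with a 95% interval from 0.102 to 0.225. ISG15 fell the most of the 6 genes and ranked 33 from the lowest log2 fold change among all genes tested. The lncRNA gene that overlaps it on the opposite strand had at most 3 reads in a library, too few to bear on its count.

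The activating enzyme was the scarcest transcript. UBA7 (ENSG00000182179.10, chromosome 3, 49805209 to 49813953, minus strand) had 120, 163 and 208 reads in the controls and, under the TFAM-OE label, 48, 48 and 28 reads. Its FPKM values of 0.95, 1.57 and 1.44 in the control and of 0.37, 0.33 and 0.25 under the TFAM-OE label did not overlap. The log2 fold change was -2.02 (SE 0.26, adjusted p = 0.0021, edgeR), with a 95% interval from -2.59 to -1.45. UBA7 was the only one of the 6 whose call depended on the scale. On log2(FPKM + 1), where the added 1 is close to or above its own FPKM values, its log2 fold change was -0.81 by limma-trend and missed the fold threshold.

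The conjugating enzyme UBE2L6 was the second most abundant of the 6. UBE2L6 (ENSG00000156587.15, chromosome 11, 57551656 to 57568284, minus strand) had 6014, 5966 and 7533 reads in the controls and, under the TFAM-OE label, 2226, 2079 and 1471 reads. Its FPKM values were 87.69, 105.27 and 95.47 in the control, against 31.16, 26.51 and 24.26 under the TFAM-OE label. Both groups were tight, and the distance between them was much wider than the spread within either. The log2 fold change was -1.79 (SE 0.14, adjusted p = 9.8e-05, edgeR).

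The HERC ligase genes stood at similar levels and fell by different amounts. HERC5 (ENSG00000138646.8, chromosome 4, 88457119 to 88506163, plus strand) had 1156, 1214 and 1390 reads in the controls and, under the TFAM-OE label, 330, 440 and 369 reads. Its FPKM values were 8.42, 10.7 and 8.8 in the control, against 2.31, 2.8 and 3.04 under the TFAM-OE label. With a log2 fold change of -1.76 (SE 0.14, adjusted p = 9.0e-05, edgeR), HERC5 had the smallest p-value of the 6 genes. HERC6 (ENSG00000138642.14, chromosome 4, 88378739 to 88443097, plus strand) had 1614, 1246 and 1711 reads in the controls and, under the TFAM-OE label, 628, 579 and 570 reads. Its FPKM values of 10.83, 10.12 and 9.98 in the control were the most even of the 6 genes, with 4.04, 3.4 and 4.33 in the libraries labelled TFAM-OE. HERC6 fell the least, with a log2 fold change of -1.37 (SE 0.11, adjusted p = 1.2e-04, edgeR). In the control HERC6 stood at 1.29, 0.946 and 1.13 times the FPKM of HERC5, so neither was higher in all 3 libraries. In the libraries labelled TFAM-OE this ratio was 1.75, 1.21 and 1.42, and HERC6 was the higher of the pair in each. The difference in the fall of HERC5 and HERC6 was not tested, and the ratio overlapped between the groups.

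The deconjugating protease fell together with the enzymes it opposes. USP18 (ENSG00000184979.9, chromosome 22, 18150118 to 18177397, plus strand) had 2200, 2205 and 3358 reads in the controls and, under the TFAM-OE label, 909, 929 and 493 reads. Its FPKM values were 27.06, 32.82 and 35.9 in the control, against 10.73, 9.99 and 6.86 under the TFAM-OE label, with no overlap. The log2 fold change was -1.76 (SE 0.20, adjusted p = 0.0010, edgeR), close to that of HERC5 and UBE2L6. USP18 has a near-identical copy, USP41, which had 1 read in a single library labelled TFAM-OE and 0 reads in the other 5 libraries. The authors counted uniquely mapped reads, so reads that match both copies are missing from both, and the level of USP18 is uncertain to that extent. Of the other pseudogenes looked for, TFAMP1 had 1 read in 1 library, and HERC2P3, with 131 reads at most in control replicate 1, had a log2 fold change of -0.22 (adjusted p = 0.73, edgeR).

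By mean FPKM in the control the order was ISG15, UBE2L6, USP18, HERC6, HERC5 and UBA7, and it was the same in the libraries labelled TFAM-OE. HERC6 at 10.3 ± 0.456 FPKM and HERC5 at 9.31 ± 1.22 FPKM (SD, n = 3 each) did not differ beyond their spread in the control, whereas the other neighbours in the order were clearly apart. ISG15 at 627 ± 71.4 FPKM exceeded UBE2L6 at 96.1 ± 8.81 FPKM, which exceeded USP18 at 31.9 ± 4.49 FPKM (SD, n = 3 each). In the libraries labelled TFAM-OE the means were 92.2 ± 33.5 FPKM for ISG15, 27.3 ± 3.52 FPKM for UBE2L6 and 9.19 ± 2.05 FPKM for USP18 (SD, n = 3 each). The gap between the modifier and its enzymes was therefore smaller there. ISG15 made up between 79.5% and 81.6% of the summed FPKM of the 6 genes in the control libraries and between 61.6% and 72.5% in the libraries labelled TFAM-OE.

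The balance of enzyme to modifier was then followed within each library, where scaling between libraries has no part. For each 100 FPKM of ISG15, UBE2L6 had 15.0, 14.8 and 16.3 FPKM in the control libraries and 24.3, 30.8 and 39.0 FPKM in the libraries labelled TFAM-OE. HERC5 had 1.44, 1.51 and 1.50 FPKM in the control and 1.80, 3.25 and 4.88 FPKM in the libraries labelled TFAM-OE. All 3 control libraries thus held HERC5 and ISG15 in nearly one proportion, and the libraries labelled TFAM-OE did not. The transcripts of ISG15 (637 bases) and HERC5 (3511 bases) differ in length and GC content, by which TFAM-OE replicates 1 and 3 differed in general. The part of this in the ratios was not tested. USP18 had 4.62, 4.63 and 6.12 FPKM per 100 FPKM of ISG15 in the control and 8.36, 11.6 and 11 FPKM in the libraries labelled TFAM-OE. The mean log2 ratio to ISG15 was higher in the libraries labelled TFAM-OE by 0.78 for UBA7, 1.00 for UBE2L6, 1.05 for HERC5, 1.42 for HERC6 and 1.01 for USP18. For all 5 ratios the groups did not overlap, and the exact permutation test gave a two-sided p of 0.1, also after adjustment over the 5 ratios, the smallest that 3 libraries against 3 allow. Of 16543 genes tested with a read in each library, 98.3% had a ratio to ISG15 that was higher in every library labelled TFAM-OE, so the direction of these ratios reflects the size of the fall of ISG15 and is not particular to the enzymes.

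**Figure D2:**
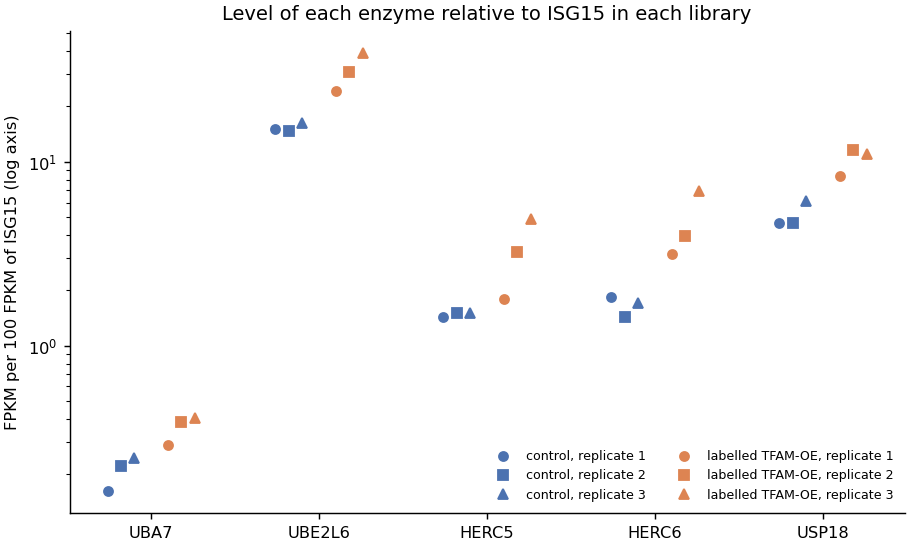
FPKM of each of the 5 other genes per 100 FPKM of ISG15 (log axis) in each of the 6 libraries, with 1 point per library. All points of the libraries labelled TFAM-OE lie above those of the control, and HERC5 ranges from 1.80 to 4.88 among them against 1.44 to 1.51 in the control.

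The libraries labelled TFAM-OE differed among themselves in these genes. Against the mean of the control, scaled counts of ISG15 were at 21.8%, 14.1% and 9.53% in replicates 1, 2 and 3, a range of 2.29 times, while the control libraries ranged over 1.26 times. HERC5 was at 26.4%, 30.9% and 31.3% and HERC6 at 41.8%, 33.8% and 40.3% in the same libraries. ISG15, UBA7, UBE2L6 and USP18 were all lowest in TFAM-OE replicate 3, and HERC5 and HERC6 were not. TFAM-OE replicates 1 and 3 also differed in general by transcript length and GC content. Of 4 classes of length with about equal numbers of genes, in the class of the shortest canonical transcripts, up to 1605 bases, the median log2 of replicate 3 over replicate 1 was -0.28, and in the class of the longest, from 4758 bases, it was 0.42. ISG15, with a transcript of 637 bases, stood at -1.19 on this measure, at percentile 0.771 of all genes, and USP18, of 1858 bases, at -0.79. HERC5, of 3511 bases, stood at 0.25 and HERC6, of 3776 bases, at -0.05. UBA7, of similar length with 3304 bases, stood at -0.64 (percentile 4.94), and UBE2L6, of 1219 bases, at -0.51. By GC content the same medians went from 0.24 in the lowest class to -0.24 in the highest, from 57.34% GC. ISG15 at 64.2% and UBA7 at 58.2% GC were in the highest class. UBE2L6 had 53.7% GC, USP18 49.8%, HERC6 45.6% and HERC5 44.1%. The part of length and GC content in the differences among these libraries was not tested. Between the groups the median log2 fold change ran from 0.04 in the shortest class to -0.08 in the longest, and from -0.12 to 0.11 between the classes of lowest and highest GC content, and no fit corrected for length or GC content was made. Without TFAM-OE replicate 3, ISG15 had a log2 fold change of -2.47, and without TFAM-OE replicate 1 of -3.08.

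**Figure D3:**
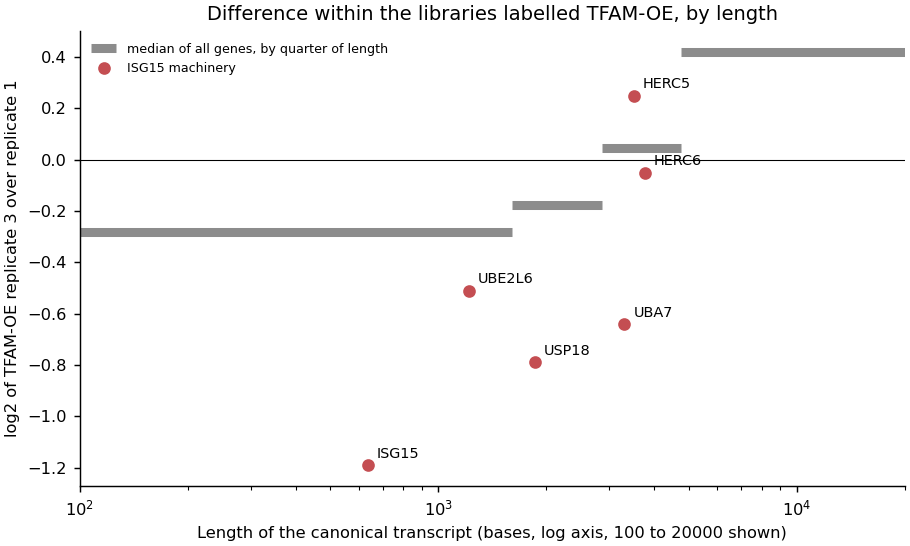
Log2 of scaled counts in TFAM-OE replicate 3 over replicate 1 against the length of the canonical transcript (log axis), with the 6 genes as points and the median of all genes tested in each of 4 classes of length as grey bars. The medians go from -0.28 in the shortest class to 0.42 in the longest, ISG15 lies at -1.19 and HERC5 at 0.25.

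The upstream sequences of the members were examined for 2 short motifs known from promoters of interferon-induced genes. RefSeq promoter windows, from 250 bases before to 50 bases after a transcript start on GRCh38.p14, were at hand for 4 of the 6 genes, with 2 starts for UBE2L6. The motifs were the core of the interferon-stimulated response element, GAAANNGAAA, and that of the gamma-activated site, TTCNNNGAA, searched on both strands. Exact matches to the first were found in the windows of ISG15 and HERC5, which are shown for the 150 bases before the start, on the coding strand, with the matches in capitals. ISG15 (chr1:1013347-1013496, plus strand) and HERC5 (chr4:88456969-88457118, plus strand) have no annotated exon in these stretches. The same 150 bases hold exon throughout for 1 start of UBE2L6 and in 113 bases for HERC6.
ISG15: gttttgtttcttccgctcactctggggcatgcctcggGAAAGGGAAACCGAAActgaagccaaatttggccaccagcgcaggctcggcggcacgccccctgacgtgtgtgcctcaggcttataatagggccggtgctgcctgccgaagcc
HERC5: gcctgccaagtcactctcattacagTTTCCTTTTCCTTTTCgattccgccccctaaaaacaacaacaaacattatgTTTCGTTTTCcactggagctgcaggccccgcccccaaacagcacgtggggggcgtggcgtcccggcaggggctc
ISG15 had 2 matches on the coding strand, at -113 to -104 and -107 to -98 from the start, which overlap. HERC5 had 3 matches on the opposite strand, at -125 to -116, -119 to -110 and -74 to -65, of which the first pair overlap. Neither window of UBE2L6 nor that of HERC6 held these letters, and none of the windows held TTCNNNGAA. Of all 35116 promoters of the same length, 3.57% held the first motif and 7.66% the second. The genes with and without a match were all called lower, so among these 4 genes calls were made with and without these letters.

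**Figure D4:**
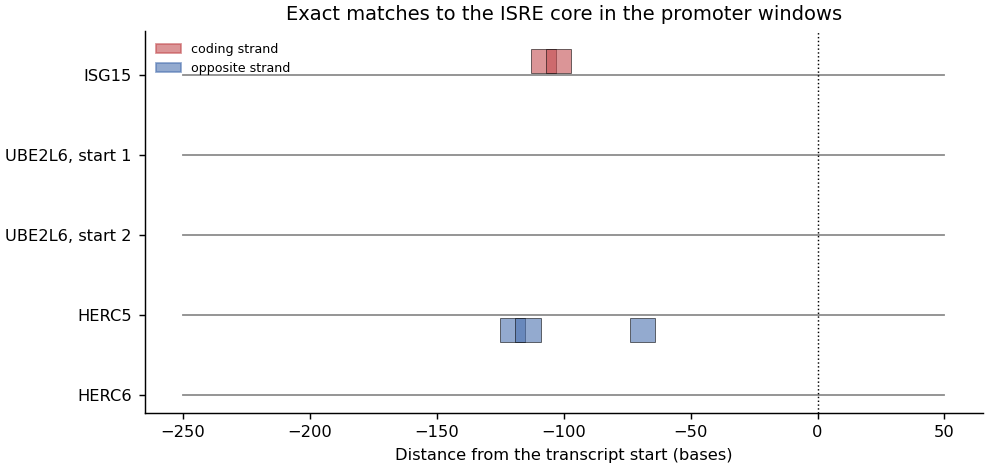
Exact matches to the core of the interferon-stimulated response element in the promoter windows of ISG15, UBE2L6 (2 transcript starts), HERC5 and HERC6, by distance from the transcript start in bases. ISG15 has 2 overlapping matches on the coding strand between -113 and -98, HERC5 has 3 on the opposite strand between -125 and -65, and the other windows have none.

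The HERC genes are neighbours on chromosome 4, on the same strand and 14021 bases apart. Other neighbours were mixed. PPM1K, a mitochondrial phosphatase gene 93969 bases from HERC6, was called lower at a log2 fold change of -1.27 (adjusted p = 0.0014, edgeR). On the far side of HERC5, PYURF had a log2 fold change of 0.04 (adjusted p = 0.87, edgeR). SERPING1, the gene of the complement C1 inhibitor, lies 29102 bases from UBE2L6 and was called lower, from 58, 36 and 39 reads in the control to 11, 9 and 9 reads, a log2 fold change of -2.20 (adjusted p = 0.0035, edgeR). The genes on either side of ISG15, HES4 at -0.54 and AGRN at 0.17 in log2 fold change, were not called. INKA1, whose end lies 178 bases from that of UBA7 on the opposite strand, had 21 to 44 reads per library and was not called (log2 fold change -0.70, adjusted p = 0.20, edgeR). TRAIP on the other side of UBA7 passed the p threshold alone, higher at a log2 fold change of 0.48 (adjusted p = 0.049, edgeR), and TUBA8 beside USP18 had one of -0.83 (adjusted p = 0.13). SMTNL1 beside UBE2L6 had at most 2 reads in a library, and GGTLC3 beside USP18 is absent from the count data.

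To see which genes followed the members most closely, each was compared, other members left out, with 13973 genes over the 6 libraries, by the root mean square difference of log2 scaled counts centred on each gene's own mean. The genes nearest to ISG15 were IFI6 (0.0782), MX1 (0.0994) and IFIT3 (0.152), all 3 known interferon-induced genes. IFI6, the nearest, went from 1640, 1750 and 1550 CPM in the control to 374, 224 and 152 CPM in the libraries labelled TFAM-OE. PARP10, IDO1 and RP1-71H24.1 were nearest to UBA7, and HELZ2, ISG20 and RP1-71H24.1 were nearest to UBE2L6. Among the genes closest to HERC5 were TLR3 (0.0882) and ISG20, and HERC6 was followed most closely by PLSCR1 (0.103), SAMHD1 and DHRS9. For USP18 these genes were GBP4 (0.105), PARP10 and RP1-71H24.1. For each of the 6 genes the nearest gene outside the machinery was closer than any other member. With 13973 genes outside and few members, this does not show that the members differ from each other. Ranked by closeness among 13978 genes, the nearest member was at rank 2 for UBA7 (USP18), 4 for USP18 (UBE2L6) and 11 for UBE2L6 (USP18). It was at rank 17 for HERC5 (UBE2L6), 44 for ISG15 (UBA7) and 101 for HERC6 (HERC5). UBE2L6 and USP18 differed by 0.153 and UBA7 and USP18 by 0.154, the nearest pairs of members, whereas ISG15 and HERC6 differed by 0.797, the farthest pair. ISG15 was thus apart from its own enzymes, the nearest of which was UBA7 at 0.496.

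The fall of the ISG15 machinery was set beside the corresponding classes of other ubiquitin-like systems. With calls at 2.07% (lower) and 0.447% (higher) over all genes, a count of 0 in lists of this size is near the background, and the lists are described by their values. Among 19 other ubiquitin and ubiquitin-like modifiers tested, 0 were called in either direction, and the median log2 fold change was 0.04. RPS27A, a ubiquitin gene and the most abundant of them, stood at 766.18, 732.15 and 830.69 FPKM in the control and 790.1, 767.44 and 669 FPKM in the libraries labelled TFAM-OE. In the control ISG15 was therefore near the level of RPS27A, and in the libraries labelled TFAM-OE it was far below. UBD, also known as FAT10 and named after its values were seen, passed the p threshold alone, at a log2 fold change of -0.93 (adjusted p = 0.012, edgeR). All 9 other activating enzyme genes were tested and 0 were called, with a median of -0.01. The ubiquitin-activating enzymes UBA1 and UBA6 had log2 fold changes of 0.23 and -0.28 (adjusted p = 0.15 and 0.34, edgeR). SAE1, a subunit of the SUMO-activating enzyme and the most abundant of this list, stood at 74.84, 78.22 and 83.82 FPKM in the control and 96.41, 94.04 and 97.9 FPKM in the libraries labelled TFAM-OE (log2 fold change 0.31, adjusted p = 0.082).

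The enzymes further down the cascade were set out in the same way. Of 34 other conjugating enzyme genes tested 0 were called, with a median log2 fold change of 0.04. UBE2L3, the closest relative of UBE2L6, had 40.39, 40.28 and 41.89 FPKM in the control and 41.24, 39.79 and 34.53 FPKM in the libraries labelled TFAM-OE. Its log2 fold change of -0.06 (adjusted p = 0.80, edgeR) stood against -1.79 for UBE2L6. UBE2S, the most abundant of this list, had a log2 fold change of 0.25 (adjusted p = 0.32), and UBE2G2, named after its values were seen, passed the p threshold alone with 0.52 (adjusted p = 0.018). Of 26 other HERC and HECT ligase genes 0 were called, with a median of -0.13. HERC1 to HERC4 had log2 fold changes of -0.29, 0.02, -0.26 and -0.12, none past the p threshold, and UBE3C, the ligase with the highest FPKM averaged over all 6 libraries, had 0.07. Past the p threshold alone were NEDD4, SMURF2 and HECTD2 at -0.58, -0.40 and -0.70 and HECTD3 at 0.71, named after their values were seen. Of 46 other ubiquitin-specific proteases tested 0 were called, with a median of -0.15. USP22, the most abundant of them, had 54.86, 55.31 and 53.76 FPKM in the control and 56.3, 61.06 and 69.6 FPKM in the libraries labelled TFAM-OE. USP15 and USP36, at -0.54 and -0.45, passed the p threshold alone and were named after their values were seen.

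The counts of 0 in these 5 classes were also 0 by DESeq2, by the exact test of edgeR and by limma-voom. At an unadjusted p below 0.05 in the quasi-likelihood test of edgeR, 2 modifiers were lower and 2 higher, 0 activating enzymes lower and 2 higher, 0 conjugating enzymes lower and 4 higher, 5 ligases lower and 1 higher, and 7 proteases lower and 2 higher. Over all genes tested, 13.2% were lower and 12.2% higher at this p, so the numbers in the classes are too small to set them apart from the rest. The medians of the modifiers, activating enzymes and conjugating enzymes were within 0.05 of 0 under TMM, upper-quartile and library-size scaling. This is too close to 0 to give a direction.

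**Figure D5:**
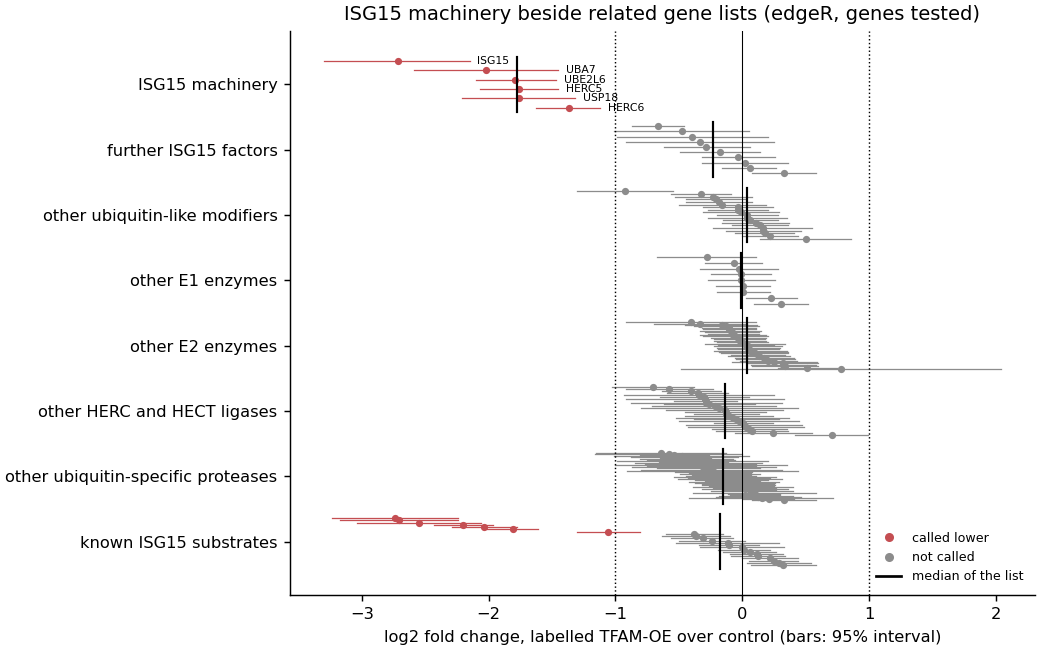
Log2 fold change of the libraries labelled TFAM-OE over the control, with 95% intervals, for the 6 genes of the ISG15 machinery and the genes tested in 7 related lists, with red for called lower, grey for not called, black bars for the median of each list and dotted lines at a fold change of 2. The 6 genes lie between -2.72 and -1.37, and the other modifier, enzyme and protease lists have medians between -0.15 and 0.04.

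Genes with other ties to ISG15 were examined in the same way, 7 of which are also among the ubiquitin-specific proteases above. Of 10 tested genes of candidate ISG15 ligases, proteases that react with ISG15 in vitro and the receptor of free ISG15, 0 were called, with a median log2 fold change of -0.23. At an unadjusted p below 0.05, 1 of them was lower and 1 higher, and 0 were called by DESeq2, the exact test of edgeR and limma-voom. TRIM25, an interferon-induced ligase, went from 50.56, 52.95 and 54.27 FPKM in the control to 31.35, 33.1 and 33.37 FPKM in the libraries labelled TFAM-OE, at a log2 fold change of -0.67 (adjusted p = 0.0031, edgeR). It thus passed the p threshold but not the fold threshold. ARIH1 had a log2 fold change of -0.28 (adjusted p = 0.28) and USP5 one of 0.33 (adjusted p = 0.10, edgeR). ITGAL, a chain of the receptor, had at most 9 reads in a library and was not tested.

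Some genes that act upstream of the machinery, from the interferon receptor onward, were examined as well. STAT2 had a log2 fold change of -1.02 (adjusted p = 0.0055) and SOCS1, an inhibitor of the pathway, one of -1.09 (adjusted p = 0.028, edgeR). Both were called lower. The receptor chains were not called, with IFNAR1, named like its partner chain for its role, at -0.23 and IFNAR2, the partner of USP18, at -0.11 (adjusted p = 0.32 and 0.51, edgeR). IRF9, which encodes the DNA-binding subunit of ISGF3, had 5 reads in control replicate 1 and was not tested. It overlaps in part with another protein-coding gene (chromosome 14, 24147548 to 24166452) on which 3141, 2615 and 3772 reads were counted in the control, against 2412, 2087 and 1372 under the TFAM-OE label, so in the overlap reads of these genes cannot be told apart, and the level of IRF9 is uncertain.

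Genes of proteins that are known to be modified by ISG15 differed in their calls. Of 22 tested, 7 were called lower and 0 higher, beside 2.07% and 0.447% of all genes, with a median log2 fold change of -0.18. The called ones were antiviral proteins that interferon induces. IFIH1, the RNA sensor MDA5, went from 9.68, 9.46 and 8.88 FPKM in the control to 1.9, 2.0 and 2.09 FPKM in the libraries labelled TFAM-OE, at a log2 fold change of -2.20 (adjusted p = 1.8e-05, edgeR). RIGI, listed under its older symbol DDX58, had a log2 fold change of -2.04, IFIT3 one of -2.71 and MX1, the dynamin-like antiviral protein, one of -2.74. Genes of the list for antiviral or interferon signalling proteins without a call were CGAS at -0.24, IRF3 at 0.29 and JAK1. JAK1, which encodes a kinase, had almost no change, and all were named after their values were seen. Housekeeping targets of ISG15 were not called, though CHMP5, also named after its values were seen, passed the p threshold alone at -0.38 (adjusted p = 0.048, edgeR). Among them was PCNA, the DNA clamp and the most abundant of this list, at 160.9, 141.39 and 146.75 FPKM in the control and 169.63, 171.44 and 183.65 FPKM in the libraries labelled TFAM-OE (log2 fold change 0.25, adjusted p = 0.11).

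Markers of cell types were followed as a check of the label. The 10 epithelial and A549 markers summed to between 10300 and 11100 CPM in the control libraries and between 11300 and 12700 CPM in the libraries labelled TFAM-OE, with AKR1B10, KRT8 or ALDH1A1 as the most abundant. EPCAM and CDH1 were low, at most 0.47 and 1.48 FPKM. Of the alveolar type II markers, ABCA3 made up nearly the whole sum of 75.3 to 92.5 CPM, and SFTPB had at most 2 reads in a library. The 7 leukocyte markers in the data summed to 7.63, 8.74 and 6.87 CPM in the control and 4.62, 5.50 and 4.03 CPM in the libraries labelled TFAM-OE. ITGAM was the most abundant of these by CPM and CD68 by FPKM, CD68 was called lower (log2 fold change -1.21, adjusted p = 0.015, edgeR), and PTPRC, which defines leukocytes, had 1 read in TFAM-OE replicate 3 and 0 reads in the other 5 libraries. The part of the leukocyte markers in the results was not tested. The endothelial markers summed to at most 0.686 CPM and the fibroblast markers, chiefly COL1A1, to at most 5.79 CPM.

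Across the 6 genes the calls held in all but 1 of the alternative analyses. The number of genes called in all, against which they were read, was less firm. Without control replicate 1 there were 183 genes called lower and 21 higher, without control replicate 2 there were 184 and 28, and without TFAM-OE replicate 2 there were 205 and 41. Without TFAM-OE replicate 3, 113 genes were called higher. The 6 genes were called lower in each of these cases.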

How the data were processed

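Reads were trimmed by the authors and aligned with TopHat2 to GRCh38. The authors deposited the count of uniquely mapped reads and the FPKM value of each gene in each library. The libraries were stranded, but no source at hand names the counting program or how it treated strand. Counts of 29845 genes were filtered with filterByExpr, scaled by TMM and put through edgeR's (4.0.16) quasi-likelihood test in R (4.3.3), two-sided, with Benjamini-Hochberg adjustment over the 16555 genes kept, which include all 6 members. With all genes with a read, edgeR's prior degrees of freedom became infinite, so the filtered fit was used. CPM values are TMM-scaled counts. FPKM was used as deposited for levels and ratios. Alternatives used limma (3.58.1), DESeq2 (1.42.0), other scalings, each library left out and the replicate number as a block. The test was tested on simulated data, where the share of false calls was slightly above the nominal one. The unfiltered fit was not simulated. Python (3.11.15) with scipy (1.17.1) gave the exact permutation tests, and matplotlib (3.10.9) the figures.

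Members and lists were chosen with earlier results of these data known. The genes named were the members, TFAM, their copies, neighbours and closest relatives, the 3 genes most like each member (mean of at least 1 CPM), and in each list up to 4 called genes per direction with the smallest p and the gene of highest mean FPKM. GENCODE (version 44), in which 97.2% of the genes were found, gave positions, and promoters came from RefSeq on GRCh38.p14.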

Additional observations from a re-analysis of the deposited data

How the results depend on the processing

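For the 6 genes, the call was kept in 59 of 60 values under alternatives and in 36 of 36 with a library left out. The alternatives were RLE, upper-quartile or library-size scaling, all genes with a read, DESeq2, the exact test of edgeR, limma-voom, limma-trend on FPKM and the replicate block. The exception was UBA7 on log2(FPKM + 1), at -0.81. With a library left out the log2 fold changes ran from -3.08 to -2.47 for ISG15, -2.22 to -1.84 for UBA7, -1.93 to -1.67 for UBE2L6, -1.84 to -1.64 for HERC5, -1.43 to -1.28 for HERC6 and -1.92 to -1.56 for USP18.

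The counts of called genes moved more. Genes called lower and higher were 342 and 74 and became 528 and 129 with all genes with a read, where edgeR's prior degrees of freedom became infinite, 108 and 11 with limma-trend on log2(FPKM + 1), which shrinks low genes, and 796 and 576 by the adjusted p alone. Limma-trend on log2(FPKM + 0.1) called 44 higher, and the cause was not tested. Leaving out a library gave 183 to 448 lower and 21 to 113 higher. The lowest counts came without control replicate 1 (183 and 21), control replicate 2 (184 and 28) and TFAM-OE replicate 2 (205 and 41), and 113 were called higher without TFAM-OE replicate 3.

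Replicate numbers do not pair the libraries: deviations from the group means correlated across genes at -0.225, 0.00767 and -0.266 for libraries with the same number, and at 0.243 and 0.252 for replicates 1 and 3 of opposite groups. With the number as a block, 217 genes were called lower and 38 higher, and ISG15, UBA7, UBE2L6, HERC5, HERC6 and USP18 had log2 fold changes of -2.80, -2.00, -1.80, -1.75, -1.38 and -1.78.

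The log2 ratios to ISG15 with each library left out, an alternative chosen after seeing the data, ran from 0.71 to 1.43 for HERC5 and from 1.10 to 1.67 for HERC6. Their direction could not turn there, nor on scaled CPM, which differ from FPKM by a nearly constant factor. The medians of 8 lists were labelled the same in 24 of 24 cases. With 1 fixed letter of the interferon-stimulated response element core allowed to differ, 33.0% of promoters held a match instead of 3.57%.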
